A study of Mus musculus with 12 samples.

Results

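The genes with which hepatocytes make blood clotting and complement proteins were examined in liver tumours and surrounding liver of mice with and without deletion of survivin.
In all 37 genes were taken by name from 34844 gene names on the array, as 13 clotting factors, 8 inhibitors and fibrinolysis genes, and 16 complement genes, and the brightest probe stood for each gene.
All 37 were on the array and among the 26503 genes tested.
Transcripts were measured on 12 single-colour Agilent arrays in 4 groups of 3.
The groups were survivin-deleted hepatocellular carcinoma (HCC), wild-type HCC, survivin-deleted liver and wild-type liver, where liver means the non-cancerous tissue.
Survivin, encoded by Birc5, acts in cell division as part of the chromosomal passenger complex.
The survivin-deleted groups carried Mxcre+ and the wild-type groups Mxcre-. The labels do not name the floxed allele or say whether the Mxcre- mice carried it.
Mx-Cre is a recombinase under the interferon-inducible Mx1 promoter, which poly(IC) turns on in hepatocytes, in blood cells and in other cell types, so the deletion is not limited to hepatocytes.
Every group consisted of male 129/SV/B6 mice given the liver carcinogen N-nitrosodiethylamine (DEN) at 50 mg/kg when 2 weeks old, poly(IC) 8 months after DEN, and tissue collection 1 week after poly(IC).
All groups had also been irradiated and transplanted with bone marrow 2 months earlier, so their blood cells came at least in part from donor marrow, and the labels do not give the donor genotype.
Separate animals behind the 3 arrays of each group are not stated, so p-values measure the spread between arrays, which may in part be technical.

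Hepatocytes secrete most of the circulating coagulation and complement proteins. Clotting runs through a contact branch (factor XII, prekallikrein, kininogen, factor XI) and a tissue factor branch (factor VII) that join at factor X and prothrombin and end in the conversion of fibrinogen to fibrin, while antithrombin, protein C, protein S and plasminogen restrain or dissolve the clot. Complement is entered through the classical, lectin or alternative route, meets at C3, and ends in a membrane attack complex built from C5 to C9. Many of these genes are acute-phase genes that interleukin-6 raises in liver, and their promoters are known for binding HNF1, HNF4 and C/EBP factors.

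The 12 arrays lay on 2 slides, replicate 1 of every group on slide 1 and replicates 2 and 3 on slide 2, and the 75th percentile of signal was 1131 to 1766 on slide 1 and 3343 to 3906 on slide 2. Wild-type liver replicate 1 had 49.0% of its spots well above background, the other arrays 69.2% to 83.4%. A pair of arrays is in doubt. In the deposited value table the column of survivin-deleted liver replicate 1 matched the scanner file of wild-type HCC replicate 1 (r = 1.00, against 0.964 with its own), and the column of wild-type HCC replicate 1 matched the scanner file of survivin-deleted liver replicate 1 (r = 1.00, against 0.970). Birc5, the targeted gene, goes against the label of 1 of them with all 3 probes, and the other read low for its label with the probes other than the brightest. The brightest Birc5 probe read 0.060, 0.17 and -0.085 in survivin-deleted HCC, against 0.80, 0.82 and 1.76 in wild-type HCC. In liver it read 2.42, -0.10 and -1.07 on the arrays labelled survivin-deleted, against 2.85, 0.51 and 0.76 on the wild-type ones. The array labelled survivin-deleted liver replicate 1 thus had rank 2 of 12 from the highest, and rank 3 with both other Birc5 probes, above the array labelled wild-type HCC replicate 1 with all 3 probes. The Birc5 difference was -1.08 in HCC and -0.96 in liver as labelled (exact two-sided permutation p = 0.1 and 0.5) and -1.62 and -1.50 with the 2 arrays exchanged (p = 0.1 and 0.3), where 0.1 is the smallest that 3 against 3 arrays allow. Groups below follow the labels of the scanner files, so slide 1 values and directions depend on them, and "exchanged" marks the same estimate with the labels of these 2 arrays swapped. The difference between tissues of the deletion change is the same either way.

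All 37 transcripts were well above background on 12 of 12 arrays, and no array had a saturated spot. Levels are given as log2 of the processed fluorescence minus the log2 of the array's 75th percentile, in the order replicate 1, 2 and 3, and levels of different genes are not compared because probes differ in brightness. Tissue was measured in bulk, so fewer cells of a type and less RNA per cell cannot be told apart.

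Promoter sequence is shown for the 3 fibrinogen genes, which lie together on chromosome 3, and for F11 and Klkb1, neighbours on chromosome 8, since 4 of the 5 members with an unadjusted p under 0.05 in the deletion comparisons below are among them. Each line gives the 150 bases before the transcription start from RefSeq on GRCm38.p6, read 5′ to 3′ on the strand of the gene, with motif matches in capitals.
Fga (chr3:83026003-83026152, plus strand): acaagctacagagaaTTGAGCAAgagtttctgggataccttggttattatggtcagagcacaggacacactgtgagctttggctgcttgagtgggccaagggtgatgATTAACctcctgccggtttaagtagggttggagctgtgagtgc
Fgb (chr3:83049864-83050013, minus strand): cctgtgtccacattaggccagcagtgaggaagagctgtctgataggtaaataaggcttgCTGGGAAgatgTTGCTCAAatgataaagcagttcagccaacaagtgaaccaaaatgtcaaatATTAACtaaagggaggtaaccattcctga
Fgg (chr3:83007574-83007723, plus strand): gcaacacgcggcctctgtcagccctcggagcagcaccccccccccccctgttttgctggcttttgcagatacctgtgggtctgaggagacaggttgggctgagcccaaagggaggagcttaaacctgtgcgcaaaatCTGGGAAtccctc
F11 (chr8:45262032-45262181, minus strand): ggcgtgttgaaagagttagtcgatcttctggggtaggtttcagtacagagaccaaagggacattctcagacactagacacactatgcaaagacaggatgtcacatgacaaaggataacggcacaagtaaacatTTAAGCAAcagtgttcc
Klkb1 (chr8:45294836-45294985, minus strand): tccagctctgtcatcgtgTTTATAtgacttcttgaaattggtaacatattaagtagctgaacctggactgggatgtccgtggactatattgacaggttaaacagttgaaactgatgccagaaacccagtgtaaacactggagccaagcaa
Motifs were searched on both strands over the 250 bases before the start, and promoters of 29 of the 37 genes were in the RefSeq table. The HNF1 half-site GTTAAT was found in 8 of 29 (27.6%), against 6.52% of all 27025 promoters in the table. The C/EBP-type motif TTGCNNAA was found in 7 (24.1%, against 9.55%) and the core of the interleukin-6 response element, CTGGGAA, in 4 (13.8%, against 9.08%). The HNF4-type motif CAAAGT was found in 5 (17.2%, against 12.5%). A TATA box spelled TATAAA was found in 2 (6.9%, against 13%). In the 5 windows shown no matches overlapped. The 8 with GTTAAT were F13b, Fga, Fgb, Proz, C8a, C8b, Hc and C4bp. A match describes letters in the window and no binding was measured.

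With the arrays as labelled, most of the 37 transcripts had somewhat lower estimates with survivin deletion in both tissues, no single gene passed the threshold, and the majority in HCC was lost with the 2 arrays in doubt exchanged. In HCC 30 of 37 were lower in survivin-deleted than in wild-type tumours, with a median log2 change of -0.20, against 52.6% lower, 47.4% higher and a median of -0.02 over all genes. In liver 35 of 37 were lower in survivin-deleted than in wild-type tissue, with a median of -0.25, against 44.9% lower, 55.1% higher and a median of 0.05 over all genes. The same 30 members were lower in both tissues, where 29.9% of all genes were, and the 7 others were F2, F10, Pros1, Cfb, Mbl1, Mbl2 and C4bp. Exchanged, 17 of 37 were lower in HCC (median 0.018, against 52.8% of all genes lower), 28 in liver (median -0.068, against 42.8%) and 15 in both. Without both arrays 28 were lower in HCC and 30 in liver (44.1% and 46.0% of all genes). The members' medians were then -0.20 and -0.079, against 0.054 and 0.031 over all genes. Quantile normalization of the arrays as labelled left 26 lower in HCC and 21 in liver (51.0% and 44.5% of all genes), with a liver median of -0.045 and, for the inhibitors in liver, 0.045. No arrays are shared by the 2 comparisons, but each holds 1 of the arrays in doubt.

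No member passed an adjusted p of 0.05 (limma, Benjamini-Hochberg over 26503 genes) in either comparison, where 0.0% of all genes did. At an unadjusted p under 0.05 in HCC 2 members were lower and 0 higher, where 4.44% of all genes were lower and 3.44% higher. In liver 3 members were lower and 0 higher, where 3.46% of all genes were lower and 8.37% higher. The 95% interval of the change lay within 1 log2 unit of 0 for 32 of 37 members in HCC (62.5% of all genes) and for 28 of 37 in liver (56.8% of all genes), so for these a change beyond 2-fold lies outside the interval.

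**Figure D1:**
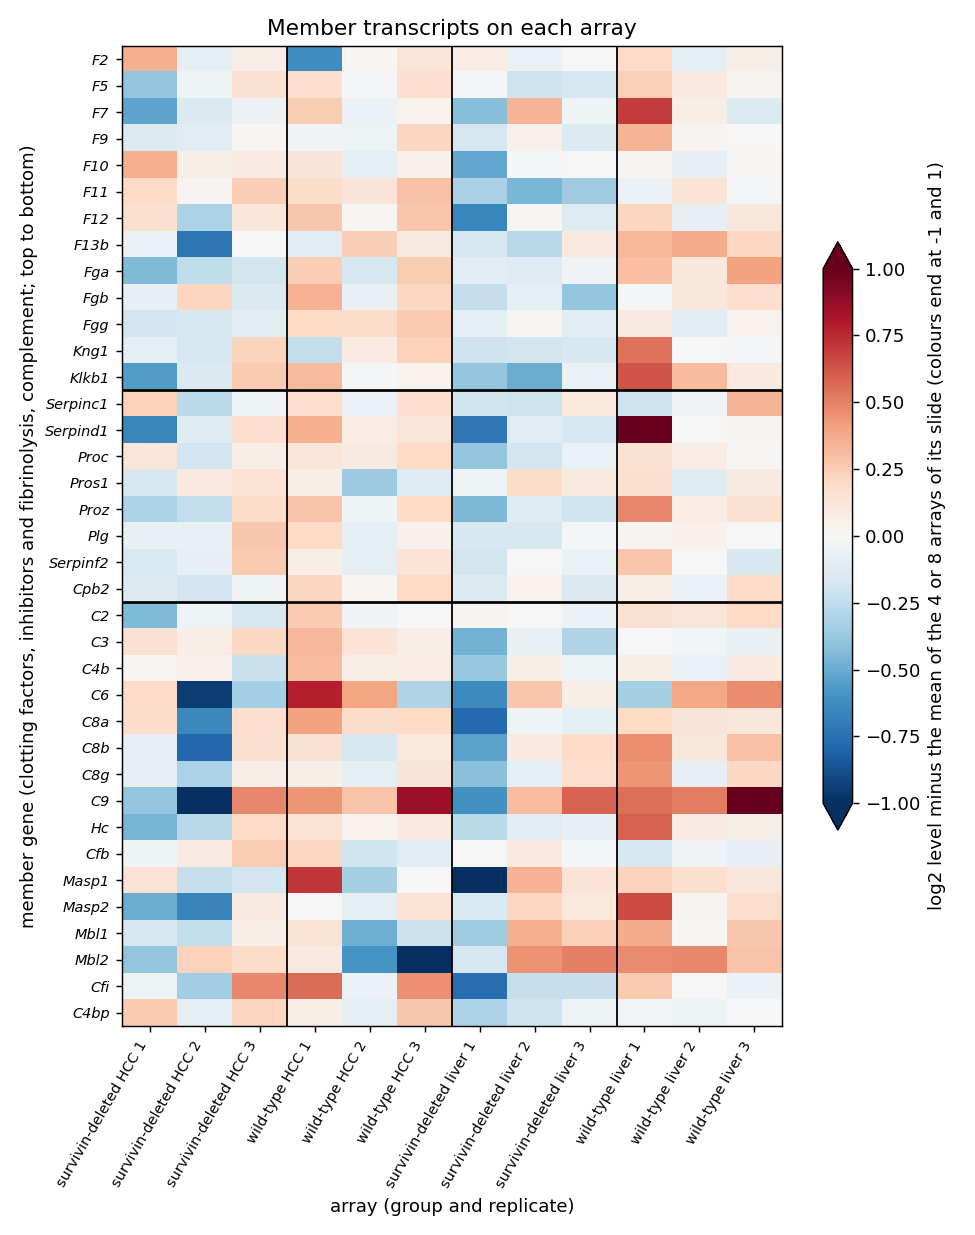
Heat map of the log2 level of each of the 37 transcripts (rows) on each of the 12 arrays (columns), after subtracting the mean of the 4 arrays of slide 1 or of the 8 arrays of slide 2, with red above and blue below that mean. The array labelled survivin-deleted liver replicate 1, 1 of the arrays in doubt, is blue for most genes, with a median of -0.31, and survivin-deleted HCC replicate 2 is blue for many complement genes.

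**Figure D2:**
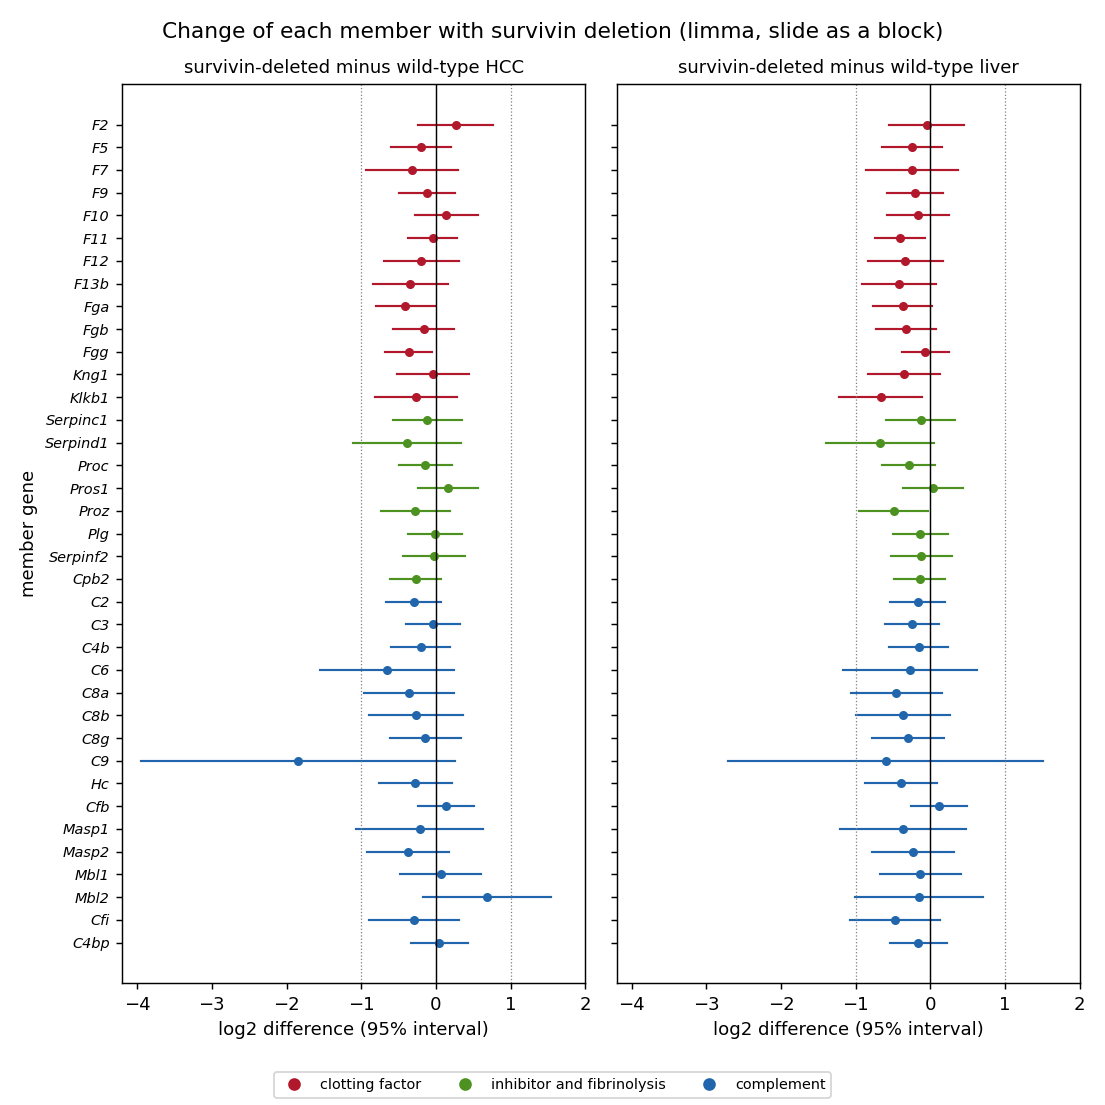
Log2 change of each transcript with survivin deletion, in HCC (left) and in liver (right), with points for the limma estimate, bars for the 95% interval and colours for the 3 classes, with all arrays as labelled. Points lie left of 0 for 30 of 37 genes in HCC and for 35 of 37 in liver, and most intervals include 0.

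By class, the median change in HCC was -0.20 for the 13 clotting factors (11 lower), -0.13 for the 8 inhibitors and fibrinolysis genes (7 lower) and -0.24 for the 16 complement genes (12 lower). In liver these medians were -0.33 (13 lower), -0.14 (7 lower) and -0.26 (15 lower). Exchanged, they were -0.052 (8 lower), 0.019 (3 lower) and 0.029 (6 lower) in HCC and -0.19 (11 lower), -0.035 (7 lower) and -0.049 (10 lower) in liver. Agreement across slides was read from whether the survivin-deleted arrays lay on 1 side of the wild-type arrays within slide 1 and within slide 2. In HCC 7 members were lower in this way and 1 was higher, where 13.1% and 8.86% of all genes were. In liver 17 members were lower and 1 was higher, where 13.3% and 15.0% of all genes were. Over all 3 arrays of a group, 1 member was lower and 1 higher without overlap in HCC (2.77% and 2.89% of all genes), and 4 were lower and 0 higher in liver (3.25% and 6.35% of all genes). With the arrays exchanged 4 members were lower in HCC (Fga, Fgg, Cpb2 and C2, where 13% of all genes were) and 9 in liver (F5, F13b, Fga, Kng1, Klkb1, Serpind1, Proc, Proz and Hc, where 13.6% were), and all of these were also among the 7 and the 17. Exchanged, F10 alone was higher in HCC and Cfb alone in liver, where 9.03% and 16.3% of all genes were.

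The fibrinogen genes encode the alpha (Fga), beta (Fgb) and gamma (Fgg) chains that thrombin turns into fibrin, and their promoters are those printed above. Fga levels were 5.72, 5.67 and 5.74 in survivin-deleted HCC, against 6.41, 5.76 and 6.18 in wild-type HCC. The 3 survivin-deleted tumours lay below all 3 wild-type tumours, as for 2.77% of all genes. The change was -0.41 (SE 0.18, 1.33-fold lower, unadjusted p = 0.0442, adjusted p = 0.626 in limma). In liver Fga levels were 6.05, 5.79 and 5.89 in survivin-deleted tissue, against 6.47, 6.04 and 6.33 in wild-type tissue. Lower values again stood in the survivin-deleted arrays of each slide, although the array labelled replicate 1 of survivin-deleted liver was slightly above the lowest wild-type array, and the change was -0.37 (SE 0.18, adjusted p = 0.427). With the arrays exchanged the Fga changes were -0.29 in HCC and -0.25 in liver. A second Fga probe, further 3′ at chr3:82837260-82837319 on mm9 against chr3:82835678-82835737 for the first, gave 0.0044 (SE 0.28) in HCC and 0.03 (SE 0.28) in liver, so the lower Fga levels were seen on 1 of 2 probes.

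Fgg levels were 5.87, 5.05 and 5.10 in survivin-deleted HCC, against 6.25, 5.39 and 5.47 in wild-type HCC. Each slide placed the survivin-deleted tumours below the wild-type ones by nearly the same amount, -0.39 on slide 1 and -0.36 on slide 2. Fgg had the smallest unadjusted p of the 37 in HCC (-0.37, SE 0.14, 1.29-fold lower, unadjusted p = 0.0277, adjusted p = 0.613), and the smallest spread within groups of the 37, with a residual SD of 0.0735. Without the arrays in doubt the change was -0.39, and with them exchanged it was -0.27. In liver the Fgg levels were 5.96, 5.22 and 5.10 in survivin-deleted tissue, against 6.15, 5.10 and 5.24 in wild-type tissue. The liver groups overlapped on slide 2 and the change was -0.07 (SE 0.14), or 0.028 exchanged. Whether the Fgg change differed between HCC and liver was tested as an interaction, which gave -0.30 (SE 0.20, unadjusted p = 0.170, adjusted p = 0.913).

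Fgb levels were 6.03, 6.34 and 5.98 in survivin-deleted HCC, against 6.46, 6.05 and 6.33 in wild-type HCC. These overlapped, with a change of -0.17 (SE 0.18), or 0.031 exchanged. In survivin-deleted liver Fgb levels were 5.88, 6.03 and 5.74, against 6.10, 6.24 and 6.29 in wild-type liver. The livers did not overlap, as for 3.25% of all genes in this direction, and the change was -0.33 (SE 0.18, adjusted p = 0.468). Exchanged, the livers overlapped and the Fgb change was -0.13. As labelled, all 3 chains had negative estimates in both tissues, with adjusted p from 0.427 to 0.857, and exchanged this held in both tissues for Fga alone.

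The contact genes F11, Klkb1, Kng1 and F12 had lower estimates in both tissues as labelled, and none of them passed the test of a difference between tissues. F11 encodes factor XI, the protease that activates factor IX. Its levels were 2.26, 2.60 and 2.70 in survivin-deleted liver, against 2.53, 3.19 and 3.05 in wild-type liver. On slide 2 the 2 survivin-deleted livers were the lowest of all 8 arrays, and the wild-type array of slide 1 fell within the range of the survivin-deleted group. F11 had the smallest unadjusted p of the 37 in liver (-0.40, SE 0.15, 1.32-fold lower, unadjusted p = 0.0228, adjusted p = 0.416), and the change was -0.44 without the arrays in doubt and -0.24 with them exchanged. In HCC the F11 levels were 2.79, 3.08 and 3.30 in survivin-deleted tumours, against 2.76, 3.19 and 3.35 in wild-type tumours. The tumours overlapped on both sides, with a change of -0.04 (SE 0.15), or 0.12 exchanged. The difference between tissues was 0.36 (SE 0.21, unadjusted p = 0.121, adjusted p = 0.913).

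Klkb1 encodes plasma prekallikrein, which factor XIIa turns into kallikrein. Its levels were 2.38, 2.73 and 3.16 in survivin-deleted liver, against 3.40, 3.54 and 3.33 in wild-type liver. All 3 survivin-deleted livers lay below all 3 wild-type livers, and the change was -0.67 (SE 0.25, 1.59-fold lower, unadjusted p = 0.0234, adjusted p = 0.416). Exchanged, the change was -0.43, and without the arrays in doubt it was -0.66. In survivin-deleted HCC the Klkb1 levels were 2.20, 3.08 and 3.48, against 3.09, 3.21 and 3.26 in wild-type HCC, where replicate 1 alone was clearly lower and the change was -0.26 (SE 0.25), or -0.028 exchanged. Kng1, which encodes the kininogen that releases bradykinin, changed by -0.36 (SE 0.21) in liver and -0.04 (SE 0.21) in HCC, or by -0.37 and -0.052 exchanged. F12, which encodes factor XII, changed by -0.34 (SE 0.22) in liver and -0.20 (SE 0.22) in HCC, and exchanged these were -0.030 and 0.11. The Kng1 value is uncertain because Kng2 is a near-identical copy whose transcript the probe may also read. Kng2 itself gave -0.33 (SE 0.17) in liver and -0.36 (SE 0.17) in HCC, or -0.27 and -0.30 exchanged.

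Prothrombin (F2) was 1 of 2 clotting factors with a higher estimate in survivin-deleted HCC as labelled (5 exchanged), and that value rested on 1 array. F2 levels were 5.16, 4.48 and 4.64 in survivin-deleted HCC, against 4.18, 4.60 and 4.69 in wild-type HCC. Only slide 1 placed the survivin-deleted tumour higher, by 0.98, against -0.09 on slide 2, and the change of 0.27 (SE 0.22) was -0.04 without the array labelled wild-type HCC replicate 1, -0.06 without both arrays in doubt and 0.037 exchanged. F10, which encodes the protease of prothrombinase, was the other, with levels of 4.61, 4.59 and 4.61 in survivin-deleted HCC, against 4.38, 4.43 and 4.57 in wild-type HCC. The tumours did not overlap, as for 2.89% of all genes in this direction, but the change was small at 0.14 (SE 0.19, adjusted p = 0.886), or 0.36 exchanged, again without overlap. In liver the F2 change was -0.05 (SE 0.22) and the F10 change was -0.16 (SE 0.19), and exchanged they were -0.28 and 0.050.
The other factors, F7, F9, F5 and F13b, had lower estimates in both tissues as labelled and exchanged. F7, the protease that tissue factor binds, changed by -0.32 (SE 0.27) in HCC and -0.25 (SE 0.27) in liver. F9, the protease that activates factor X, changed by -0.12 (SE 0.17) and -0.21 (SE 0.17). F5, the cofactor of factor Xa, changed by -0.20 (SE 0.18) and -0.25 (SE 0.18), and F13b, the carrier subunit of the enzyme that crosslinks fibrin, by -0.34 (SE 0.22) and -0.42 (SE 0.22). Adjusted p for these 4 ranged from 0.451 to 0.896. Exchanged, they lay between -0.32 (F13b) and -0.075 (F9) in HCC and between -0.40 (F13b) and -0.022 (F7) in liver.

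Among the inhibitors, Proz encodes protein Z, a cofactor in the inhibition of factor Xa. Proz levels were 5.03, 5.18 and 5.10 in survivin-deleted liver, against 5.96, 5.38 and 5.45 in wild-type liver. The livers did not overlap, and the change was -0.49 (SE 0.20, 1.41-fold lower, unadjusted p = 0.0377, adjusted p = 0.417). Its size came mostly from slide 1, where the difference was -0.93, against -0.27 on slide 2, and exchanging the arrays gave -0.25 with overlapping groups. In HCC the Proz levels were 5.17, 5.05 and 5.49 in survivin-deleted tumours, against 5.77, 5.26 and 5.50 in wild-type tumours, which overlapped, with a change of -0.27 (SE 0.20), or -0.0285 exchanged. The smallest unadjusted p of this class in HCC was that of Cpb2, a carboxypeptidase that slows fibrinolysis after its activation by thrombin. Cpb2 levels were 5.79, 4.86 and 5.01 in survivin-deleted HCC, against 6.15, 5.08 and 5.25 in wild-type HCC. Within each slide the survivin-deleted tumours were lower, and the change was -0.27 (SE 0.15, adjusted p = 0.692), or -0.15 exchanged.

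Serpind1, which encodes heparin cofactor II, had the largest estimate of the 37 in liver, -0.68 (SE 0.32, adjusted p = 0.427), and -0.38 (SE 0.32) in HCC, and exchanged these were -0.32 and -0.027. Its levels were 2.27, 4.09 and 4.03 in survivin-deleted liver, against 4.0, 4.21 and 4.22 in wild-type liver. The array labelled replicate 1 of survivin-deleted liver stood far below the rest, with differences of -1.72 on slide 1 and -0.15 on slide 2. Proc, which encodes protein C, changed by -0.29 (SE 0.16) in liver and -0.14 (SE 0.16) in HCC. Antithrombin (Serpinc1) changed by -0.13 (SE 0.21) in liver and -0.11 (SE 0.21) in HCC. The genes of plasminogen (Plg) and of alpha-2-antiplasmin (Serpinf2) changed by -0.14 (SE 0.16) and -0.12 (SE 0.18) in liver and by -0.01 (SE 0.16) and -0.03 (SE 0.18) in HCC. Exchanged, these 4 genes lay between -0.12 (Proc) and -0.0082 (Serpinc1) in liver, and in HCC all 4 were above 0, from 0.0098 (Serpinc1) to 0.11 (Plg). Pros1, which encodes the protein C cofactor protein S, was the only member of the class with a higher estimate as labelled. Its levels were 3.20, 2.92 and 2.97 in survivin-deleted HCC, against 3.45, 2.46 and 2.69 in wild-type HCC. Slide 2 placed the survivin-deleted tumours higher by 0.37 and slide 1 lower by 0.25, for a change of 0.16 (SE 0.18). In liver the Pros1 change was 0.03 (SE 0.18), and exchanged the changes were 0.20 in HCC and 0.070 in liver.

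**Figure D3:**
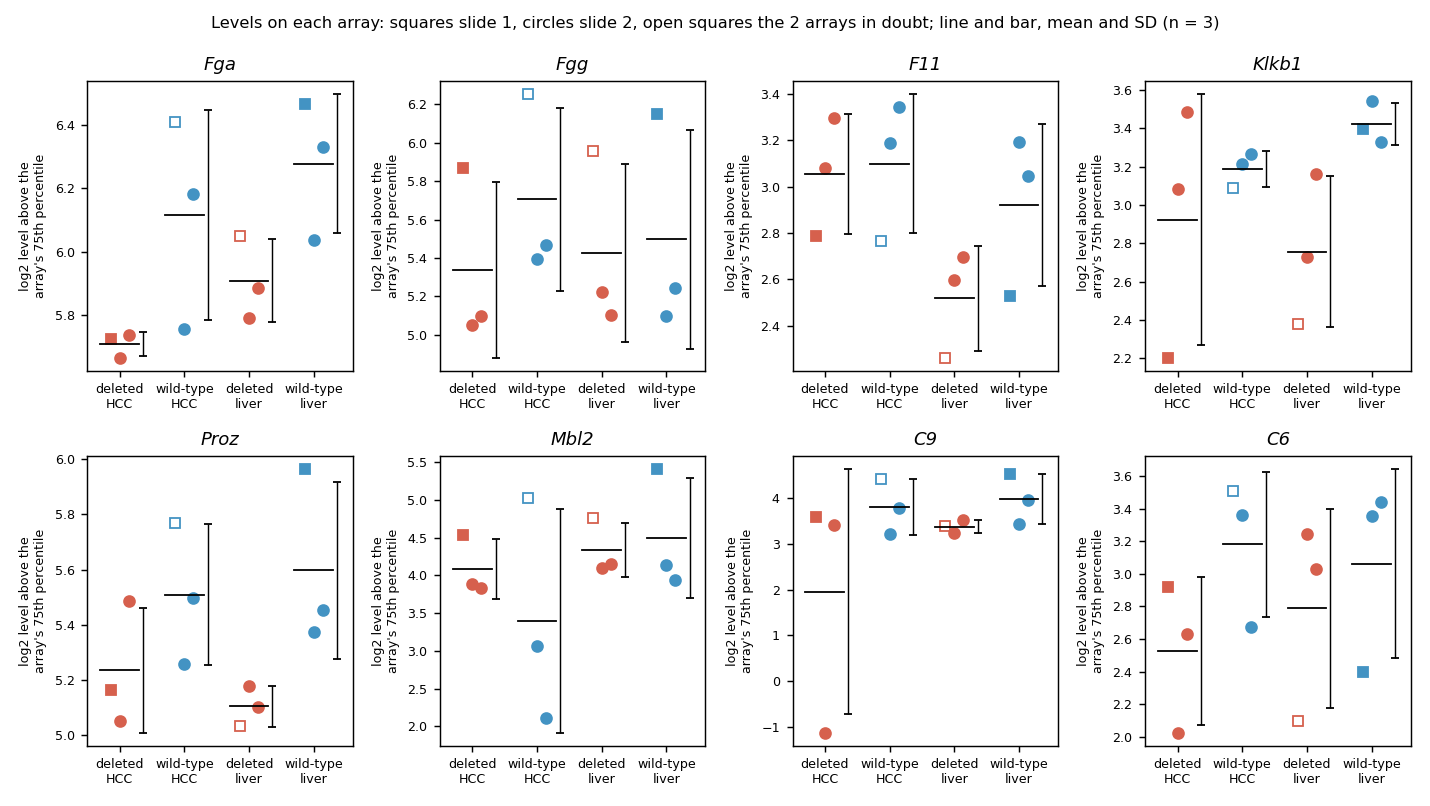
Log2 level above the array's 75th percentile on each of the 12 arrays for 8 transcripts, with red for survivin-deleted and blue for wild-type groups, squares for slide 1, circles for slide 2, open squares for the 2 arrays in doubt, a line for the mean and a bar for the SD of 3 arrays. With the arrays as labelled, Fga is lower on all 3 survivin-deleted HCC arrays than on all 3 wild-type ones, Klkb1 and Proz likewise in liver, and C9 has a single low array at -1.13.

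The complement genes included the transcripts with the widest spread between arrays. Mbl2 encodes the mannose-binding lectin C that starts the lectin route, and its levels were 4.54, 3.88 and 3.83 in survivin-deleted HCC, against 5.02, 3.07 and 2.11 in wild-type HCC. On slide 2 both wild-type tumours were the lowest of the 8 arrays, while on slide 1 the order was the other way. The change was 0.68 (SE 0.38, 1.61-fold higher, unadjusted p = 0.105, adjusted p = 0.683), made of -0.48 on slide 1 and 1.27 on slide 2, and it was 0.77 with the arrays exchanged. In survivin-deleted liver Mbl2 levels were 4.75, 4.10 and 4.15, against 5.41, 4.13 and 3.94 in wild-type liver. The livers overlapped, with a change of -0.16 (SE 0.38), or -0.068 exchanged, and the difference between tissues was 0.84 (SE 0.54, unadjusted p = 0.152, adjusted p = 0.913). Mbl1, the gene of mannose-binding lectin A, changed by 0.07 (SE 0.24) in HCC and -0.14 (SE 0.24) in liver, or by 0.23 and 0.031 exchanged. The lectin-route proteases Masp1 and Masp2 changed by -0.22 (SE 0.38) and -0.37 (SE 0.24) in HCC and by -0.37 (SE 0.38) and -0.23 (SE 0.24) in liver. Exchanged, Masp1 turned to 0.38 in HCC and 0.23 in liver, and Masp2 was -0.32 and -0.18.

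C2, the protease of the C3 convertase of the classical and lectin routes, had levels of 4.01, 3.61 and 3.50 in survivin-deleted HCC, against 4.71, 3.63 and 3.66 in wild-type HCC. Survivin-deleted tumours were lower within both slides, by 0.70 on slide 1 and 0.09 on slide 2, and the change was -0.30 (SE 0.16, adjusted p = 0.681), or -0.22 exchanged. Its counterpart in the alternative route, factor B (Cfb), was among the few with higher estimates in both tissues. Cfb levels were 4.92, 4.51 and 4.69 in survivin-deleted HCC, against 5.16, 4.23 and 4.32 in wild-type HCC, and 4.95, 4.53 and 4.41 in survivin-deleted liver, against 4.80, 4.39 and 4.35 in wild-type liver. Survivin-deleted livers were higher within both slides and the tumours disagreed between slides, and the changes were 0.13 (SE 0.17) in HCC and 0.12 (SE 0.17) in liver, with adjusted p of 0.875 and 0.782, and exchanged they were 0.21 and 0.19.
C3, at which the routes meet, changed by -0.03 (SE 0.16) in HCC and -0.24 (SE 0.16) in liver, or by 0.23 and 0.021 exchanged. C4b, a subunit of the same convertase as C2, changed by -0.20 (SE 0.18) and -0.16 (SE 0.18), and its value is uncertain because C4a is a near-identical copy. Exchanged, the C4b changes were 0.025 and 0.073. Hc, the mouse gene of C5, changed by -0.28 (SE 0.22) and -0.39 (SE 0.22), or by -0.14 and -0.26 exchanged. Of the regulators, complement factor I (Cfi), which cuts C3b and C4b, changed by -0.29 (SE 0.27) in HCC and -0.47 (SE 0.27) in liver. Cfi levels were 4.04, 4.28 and 4.27 in survivin-deleted liver, against 5.06, 4.50 and 4.45 in wild-type liver, which did not overlap as labelled. Exchanged, the livers overlapped, with differences of 0.30 on slide 1 and -0.20 on slide 2, and the Cfi change was -0.033 in liver and 0.15 in HCC. C4bp, the cofactor of factor I that binds C4b, changed by 0.05 (SE 0.17) and -0.16 (SE 0.17), or by 0.17 and -0.037 exchanged.

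The membrane attack complex genes C6, C8a, C8b, C8g and C9 had lower estimates in both tissues as labelled, and 3 of them turned in 1 tissue with the arrays exchanged. C6 levels were 2.92, 2.02 and 2.63 in survivin-deleted HCC, against 3.51, 3.36 and 2.67 in wild-type HCC. Survivin-deleted tumours were lower within both slides, with a change of -0.66 (SE 0.40, adjusted p = 0.710), and in liver the change was -0.27 (SE 0.40). Exchanged, C6 was -0.19 in HCC, no longer lower on both slides, and 0.20 in liver. The 3 chains of C8 changed by -0.36 (C8a, SE 0.27), -0.27 (C8b, SE 0.28) and -0.14 (C8g, SE 0.21) in HCC and by -0.45, -0.37 and -0.30 in liver. Exchanged, these were 0.034, -0.038 and 0.018 in HCC and -0.061, -0.14 and -0.14 in liver. A second, less bright C8g probe gave a larger change in HCC with the arrays as labelled. It was -0.63 (SE 0.22, unadjusted p = 0.0175, adjusted p = 0.507 in limma over all kept probes), and -0.31 (SE 0.22) in liver. C9, which forms the pore, had the largest estimate of all 37 in HCC, and it rested on 1 array.
C9 levels were 3.6, -1.13 and 3.41 in survivin-deleted HCC, against 4.43, 3.21 and 3.78 in wild-type HCC. The processed signal was 1534 on survivin-deleted HCC replicate 2 and 13370 to 54000 on the other 11 arrays. The change was -1.85 (SE 0.94, 3.6-fold lower, unadjusted p = 0.0784, adjusted p = 0.656), and it was -0.39 (unadjusted p = 0.238) without that array. In liver C9 levels were 3.38, 3.24 and 3.52 in survivin-deleted tissue, against 4.54, 3.44 and 3.97 in wild-type tissue, with a change of -0.60 (SE 0.94). Exchanged, the C9 changes were -1.50 in HCC and -0.25 in liver. The array has a single C9 probe that passed the filter, so the low value could not be set against a second probe. It is printed here in full because the value rests on it, and it lies at chr15:6433127-6433186 on mm9, plus strand.
C9 probe: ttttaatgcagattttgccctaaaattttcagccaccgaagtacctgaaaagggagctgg

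Survivin-deleted HCC replicate 2 was low for more than C9. It was the lowest of the 8 slide 2 arrays for 18 of 37 members, as for 21.8% of all genes, and among the 18 were C6, C8a, C8b, C8g, Hc, Masp2, Cfi, Fga and Fgg. Each of the 7 other slide 2 arrays was the lowest for 0 to 6 members, as for 7.98% to 14.3% of all genes. Survivin-deleted HCC replicate 2 was also the highest of the 8 for 24.3% of all genes, against 6.66% to 13.6% on the others. Of the members only Fgb was highest there. Without survivin-deleted HCC replicate 2 the members' median in HCC was -0.09, against -0.20 with all arrays. On slide 1 the array labelled survivin-deleted liver was the low one, with a median deviation of -0.31 from the slide mean over the members and 0.07 over all genes, while wild-type liver replicate 1 stood at 0.23 and -0.04. By this measure the members' medians on the 8 slide 2 arrays ran from -0.16 on survivin-deleted HCC replicate 2 to 0.13 on wild-type HCC replicate 3.

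Tumour tissue and liver were then compared within each genotype, and the direction of many members depended on the arrays in doubt. Exchanging these turned 14 members from higher to lower and 1 from lower to higher in wild-type mice. For survivin-deleted mice it turned 12 members to lower and 0 to higher, and the rest kept their direction. In wild-type mice the median change of HCC against liver was -0.04 (0.04 over all genes), with 16 members higher and 21 lower (55.4% and 44.6% of all genes), and the class medians were -0.08 for clotting factors, 0.01 for inhibitors and -0.06 for complement. No member passed the adjusted threshold (0.0% of all genes did), and at an unadjusted p under 0.05 there was 1 lower member and 0 higher (2.43% and 3.66% of all genes). The 95% interval lay within 1 log2 unit of 0 for 34 of 37 members (60.5% of all genes). In survivin-deleted mice the median was 0.08 (-0.04 over all genes), with 23 higher and 14 lower (44.2% and 55.8% of all genes), and class medians of 0.10, 0.11 and -0.01. Again 0 members passed (0.0% of all genes), 2 were higher and 0 lower at an unadjusted p under 0.05 (1.75% and 2.63% of all genes), and 33 of 37 intervals lay within 1 log2 unit (63.6% of all genes). Exchanged, 34 of 37 were lower in wild-type HCC than in wild-type liver (median -0.19, against 46.1% of all genes lower), and 26 of 37 were lower in survivin-deleted HCC than in survivin-deleted liver (median -0.12, against 54.6%). The deposited value table likewise had 34 and 25 lower (46.1% and 53.7% of all genes). Without the 2 arrays in doubt 20 and 21 were lower (48.8% and 46.6% of all genes), with a median of -0.075 in each genotype. Without only the array labelled survivin-deleted liver replicate 1 the median in survivin-deleted mice was -0.08.

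The member that stood out between wild-type tissues was Mbl2, with levels of 5.02, 3.07 and 2.11 in wild-type HCC, against 5.41, 4.13 and 3.94 in wild-type liver. On each slide the tumours were lower, by 0.39 on slide 1 and 1.45 on slide 2. The change was -1.09 (SE 0.38, 2.13-fold lower, unadjusted p = 0.0173, adjusted p = 0.752), and it was -1.18 with the arrays exchanged and -1.56 without them. Mbl1 had the next smallest p, with levels of 4.56, 3.39 and 3.66 in wild-type HCC, against 4.79, 3.89 and 4.14 in wild-type liver. Its tumours were also lower on both slides, with a change of -0.40 (SE 0.24, adjusted p = 0.752), or -0.57 exchanged. Masp2 (-0.27, SE 0.24) and Pros1 (-0.19, SE 0.18) followed among the lower ones, at -0.32 and -0.22 exchanged.
Higher estimates in wild-type HCC were small. Fgg changed by 0.21 (SE 0.14), C3 by 0.21 (SE 0.16), F11 by 0.18 (SE 0.15) and Cfi by 0.25 (SE 0.27), with adjusted p of 0.764 to 0.840. Exchanged, Fgg was 0.11 and F11 0.010, and C3 and Cfi turned to -0.054 and -0.19. In the tumours 5 members were lower within both slides (Klkb1, Pros1, C8b, Mbl1 and Mbl2) and 3 were higher (Fgg, C3 and C8a), where 11.8% and 13.9% of all genes were. Over all 3 arrays of a group only C3 was higher and only Klkb1 lower without overlap, as for 4.69% and 2.49% of all genes. A second C3 probe of the same mean level gave -0.11 (SE 0.22), so the higher C3 was not seen on both probes. Exchanged, 7 members were lower within both slides, the same 5 with C2 and Masp1, and 0 were higher (12.9% and 14% of all genes).

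In survivin-deleted mice F11 had the smallest p of any member in any comparison. Its levels were 2.79, 3.08 and 3.30 in survivin-deleted HCC, against 2.26, 2.60 and 2.70 in survivin-deleted liver. Every tumour lay above every liver, as for 2.26% of all genes, with differences of 0.52 on slide 1 and 0.54 on slide 2. The change was 0.54 (SE 0.15, 1.45-fold higher, unadjusted p = 0.00510, adjusted p = 0.904), and it was 0.57 without the arrays in doubt and 0.37 with them exchanged. F10 was also above every liver, with levels of 4.61, 4.59 and 4.61 in survivin-deleted HCC, against 3.73, 4.51 and 4.52 in survivin-deleted liver. The gap was 0.88 on slide 1 and 0.08 on slide 2, for a change of 0.35 (SE 0.19), or 0.13 exchanged, again without overlap. C4bp changed by 0.32 (SE 0.17), or 0.19 exchanged.
C3 levels were 6.25, 6.14 and 6.28 in survivin-deleted HCC, against 5.62, 6.0 and 5.78 in survivin-deleted liver. These did not overlap, with a change of 0.42 (SE 0.16, unadjusted p = 0.0262, adjusted p = 0.904), but C3 has a second probe of the same mean level (6.081 for both), which gave 0.03 (SE 0.22). Exchanged, the C3 groups overlapped and the change was 0.16. Among the lower members were Masp2 (-0.41, SE 0.24), C2 (-0.21, SE 0.16), Fga (-0.20, SE 0.18) and C9 (-1.42, SE 0.94), and the C9 estimate was 0.04 without survivin-deleted HCC replicate 2. Exchanged, these were -0.46 for Masp2, -0.29 for C2, -0.32 for Fga and -1.77 for C9. As labelled, Fga was the only member whose tumours all lay below the livers, as for 2.28% of all genes, at 5.72, 5.67 and 5.74 in survivin-deleted HCC, against 6.05, 5.79 and 5.89 in survivin-deleted liver. Within both slides 3 members were higher (F10, F11 and C3) and 5 lower (F7, Fga, Fgg, Masp2 and Mbl2), where 7.57% and 10.9% of all genes were. Exchanged, 2 were higher (F10 and F11) and 8 lower (F7, Fga, Fgg, C6, Masp1, Masp2, Mbl1 and Mbl2), where 9.35% and 12.8% of all genes were.

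Whether the effect of the deletion differed between HCC and liver was tested as the difference of the 2 changes. No member passed the adjusted threshold (0.0% of all genes did), and 0 members had an unadjusted p under 0.05, where 0.845% of all genes were higher and 2.43% lower. The median difference was 0.13 (-0.06 over all genes), with 28 members above 0 and 9 below (43.6% and 56.4% of all genes). The intervals were wide, and 29 of 37 lay within 1 log2 unit (36.9% of all genes). Beside F11, Mbl2 and Fgg above, the named differences were 0.40 (SE 0.35) for Klkb1, 0.31 (SE 0.27) for F10, -0.12 (SE 0.22) for Cpb2, -0.38 (SE 0.56) for C6 and -1.25 (SE 1.33) for C9. The C9 difference was 0.21 without survivin-deleted HCC replicate 2. Exchanging the arrays in doubt leaves these estimates as they are, because both arrays enter the difference with the same sign.

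**Figure D4:**
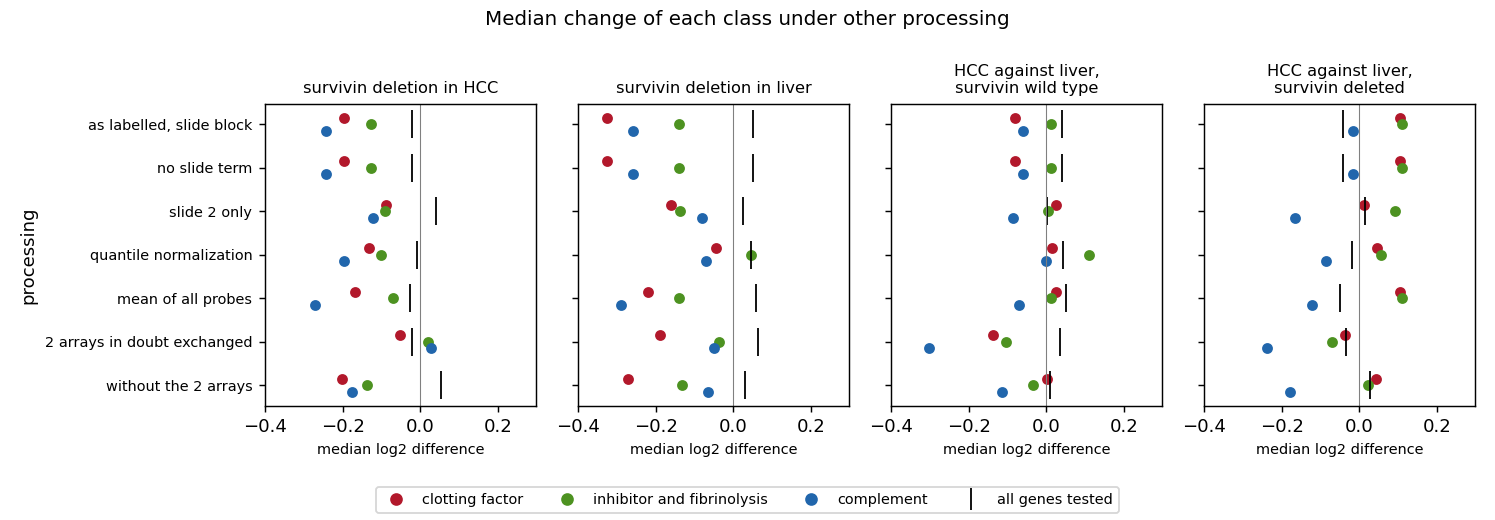
Median log2 difference of the clotting factors, the inhibitors and fibrinolysis genes, and the complement genes in 4 comparisons (panels) under 7 ways of processing (rows), with a black bar for the median of all genes tested. In the deletion comparisons the class medians lie left of 0 with all arrays as labelled, except the inhibitors in liver with quantile normalization (0.045). They lie close to 0 in HCC with the 2 arrays in doubt exchanged.

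The 37 transcripts were measured with a median residual SD of 0.233 within groups, against 0.344 for all genes tested. The range ran from 0.0735 for Fgg and 0.101 for F11 to 0.519 for Mbl2, 0.545 for C6 and 1.35 for C9. For 11 members several probes passed the filter. Their probes gave the same sign for 9 of 11 in HCC (all but Fga and Proz) and for 8 of 11 in liver (all but F5, F10 and Fga) in the deletion comparisons, and for 6 and 7 of 11 in the tissue comparisons of wild-type and survivin-deleted mice.

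Other genes of both systems, made in large part outside hepatocytes or acting at the cell surface, had 0 called by limma in each comparison. Of 24 further coagulation genes, 16 were higher and 8 lower in survivin-deleted HCC (median 0.06), and 11 were higher and 13 lower in survivin-deleted liver (median -0.18). Exchanged, 16 were higher and 8 lower in HCC (median 0.11), and 12 were higher and 12 lower in liver (median 0.0092). The genes of these lists named here were chosen after their values were seen. At an unadjusted p under 0.05, F8, the cofactor of factor IX, and Tfpi2, a Kunitz-type protease inhibitor, were lower in both, by -0.87 (SE 0.36) and -1.15 (SE 0.35) in HCC and by -0.98 (SE 0.36) and -0.82 (SE 0.35) in liver. Procr, the endothelial protein C receptor, was higher in HCC by 1.33 (SE 0.56) and Serpina5, the protein C inhibitor, lower in liver by -1.49 (SE 0.67). Exchanged, F8 was -0.85 in HCC and -0.96 in liver, Tfpi2 -1.28 and -0.96, Procr 1.21 in HCC and Serpina5 -1.01 in liver. Of 29 further complement genes, 13 were higher and 16 lower in survivin-deleted HCC (median -0.05), and 5 were higher and 24 lower in survivin-deleted liver (median -0.17). Exchanged, 17 were higher and 12 lower in HCC (median 0.17), and 9 were higher and 20 lower in liver (median -0.062).
In wild-type HCC against wild-type liver 7 of these were higher and 22 lower (median -0.38), or 4 and 25 exchanged (median -0.40). The lectin-route collectins Colec10 (-2.23, SE 0.87) and Colec11 (-1.07, SE 0.40) and the macrophage complement receptor Vsig4 (-1.68, SE 0.57) had an unadjusted p under 0.05 there, beside the lower Mbl2 described above, and exchanged they were -2.42, -1.14 and -1.70. In survivin-deleted mice the same comparison had 14 higher and 15 lower (median -0.11), or 8 and 21 exchanged (median -0.24), with C7 (-0.59, SE 0.19) and Cd59b (-1.17, SE 0.33), an inhibitor of the membrane attack complex, at an unadjusted p under 0.05, and exchanged these were -0.40 and -1.24.

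Markers of hepatocytes and of other cell types were read beside these results, as summed linear levels in multiples of the array's 75th percentile. Of 8 hepatocyte markers, 4 were higher and 4 lower in survivin-deleted HCC (median -0.0045), with sums of 375 to 407 in survivin-deleted HCC and 386 to 420 in wild-type HCC. In liver 2 were higher and 6 lower with deletion (median -0.24), with sums of 318 to 329 in survivin-deleted liver and 386 to 455 in wild-type liver. These sums follow the labels. Exchanged, an array from the wild-type HCC range of 386 to 420 would join survivin-deleted liver, so the gap in liver depends on the arrays in doubt. Among 10 hepatocyte transcription factors 8 were lower with deletion in HCC (median -0.18) and 7 in liver (-0.15), or 4 and 3 exchanged (0.042 and 0.060). Marker lists of other cell types went both ways in survivin-deleted liver. Lower were 8 of 8 macrophage markers (median -0.28), 6 of 6 endothelial (-0.20), 6 of 6 neutrophil (-0.29), 6 of 7 platelet and megakaryocyte (-0.80) and 6 of 8 stellate and fibroblast markers (-0.24). Higher were 7 of 8 T and NK cell markers (median 0.12), 5 of 6 B and plasma cell (0.28) and 3 of 5 cholangiocyte markers (0.53). Exchanged, 5 of 8 hepatocyte markers were lower in liver (-0.21), 6 of 8 macrophage (-0.12), 6 of 6 endothelial (-0.49), 6 of 6 neutrophil (-0.11), 7 of 7 platelet (-0.50) and 7 of 8 stellate markers (-0.46). T and NK cell markers were then lower for 7 of 8 (-0.15), while 6 of 6 B and plasma cell (0.52) and 4 of 5 cholangiocyte markers (0.53) were higher. The part of any of these in the lower clotting and complement genes of liver was not tested. Of 14 acute-phase genes, 9 were higher in HCC (median 0.04) and 10 in liver (median 0.09), or 10 and 12 exchanged (medians 0.21 and 0.51).
Of 8 T and NK cell markers, 7 were higher in survivin-deleted HCC, with a median of 1.02 and sums of 6.3 to 12.5 in survivin-deleted HCC against 6.12 to 7.64 in wild-type HCC. Exchanged, 7 of 8 were higher, with a median of 0.60. Their part in the lower members of HCC was not tested. Of 8 macrophage markers, 0 were higher in wild-type HCC than in wild-type liver (median -0.86), with sums of 16.1 to 61.6 in wild-type HCC and 35.2 to 84.4 in wild-type liver, and exchanged also 0 (median -1.06). Lower there too were 6 of 8 stellate (median -0.16), 6 of 6 endothelial (-0.17) and 6 of 6 neutrophil markers (-0.59). So were 6 of 7 platelet, 6 of 8 T and NK cell and 5 of 6 B and plasma cell markers. Of 5 cholangiocyte markers 4 were higher. Exchanged, 4 of 8 stellate, 3 of 6 endothelial and 6 of 6 neutrophil markers were lower. Vsig4 is itself on the macrophage list. The part of any cell type in the lower Colec10 and Colec11 values was not tested. Marker lists had 0 genes below background on all arrays of a group.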

How the data were processed

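The deposited intensity of each spot came from Agilent Feature Extraction, version 10.7 in the submitters' processing notes. Its spatial and multiplicative trends had been removed and separate background correction was off, per the file headers, which place probes on mm9. A value table of log2 levels, deposited by the authors with each array's 75th percentile near 0, served only as an alternative. No other processing step is given in the sources used here.

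From the intensities, unflagged spots of a probe were put on the log2 scale, averaged (Python 3.11.15, pandas 2.3.3) and reduced by the array's 75th percentile over non-control probes. Of 55681 probes, 39131 were kept because every array of 1 or more groups read them well above background, and the brightest probe stood for each of 26503 genes, 311 of which lacked a value on some array and were fitted without it. The fit was limma 3.58.1 in R 4.3.3 (lmFit, contrasts.fit, eBayes) with 4 group means and slide as a block over 12 arrays, 7 residual degrees of freedom and Benjamini-Hochberg adjustment over all genes in each of 5 contrasts, called at an adjusted p of 0.05. Intervals are 95%. The fit was tested on simulated data. The number of arrays limits the precision.

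Members, gene lists, tests and alternatives were chosen with earlier results of these data known. Values on every array are given for members called and otherwise for up to 4 members per direction and contrast of smallest unadjusted p, of which none passed, with others added after their values were seen. Values of the remaining members under that rule are given as changes. Deviations from the group means of same-numbered arrays correlated at 0.279 to 0.737 over 18 pairs, against -0.697 to 0.538 over 36 other pairs. Pairs of different number on slide 2 were not set apart from the other pairs. Whether the slide or another link between same-numbered arrays lay behind these correlations was therefore not tested. Alternatives were no slide term, the replicate number as block, slide 2 only, quantile normalization, normexp with an offset of 50, no filter on dim probes, the mean of all probes, trended robust variances, the value table, exchanging or leaving out the 2 arrays in doubt, and leaving out each array. Added after seeing the data were 2 alternatives without survivin-deleted HCC replicate 2, one with the arrays exchanged and one within slide 2. Promoters were the first listed start of each gene in RefSeq.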

Additional observations from a re-analysis of the deposited data

How the results depend on the processing

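No member passed the adjusted threshold under any setting, and the smallest adjusted p over all settings was 0.149 for deletion in HCC, 0.235 for deletion in liver, 0.247 and 0.462 for HCC against liver in wild-type and survivin-deleted mice, and 0.769 for the difference between tissues. The replicate block in place of slide left the members' medians at -0.20, -0.25, -0.04, 0.08 and 0.13 in this order and changed no call. Medians are given next where they moved by more than the SD between replicates of 0.132, and the cause was not tested. In HCC the median was 0.018 with the value table, 0.018 with the arrays in doubt exchanged, 0.10 with them exchanged and without survivin-deleted HCC replicate 2, and 0.048 on slide 2 without that array. In liver it was -0.045 with quantile normalization, -0.076 with the value table, -0.068 with the arrays exchanged (also without survivin-deleted HCC replicate 2) and -0.079 without both. For HCC against liver in wild-type mice it was -0.18 with the value table, -0.19 with the arrays exchanged and -0.20 when survivin-deleted HCC replicate 2 was left out as well. In survivin-deleted mice these 3 values were -0.11, -0.12 and -0.072, and it was -0.075 without both arrays in doubt. The difference between tissues had a median of -0.030 with quantile normalization. Leaving out each array in turn gave medians of -0.27 to -0.09 in HCC, -0.31 to -0.11 in liver, -0.10 to 0.06 and -0.076 to 0.10 for the tissues, and 0.03 to 0.21 for the difference. Single members turned their sign at small sizes. In HCC F2 was -0.088 on slide 2, -0.060 without the arrays in doubt, -0.0065 on slide 2 without survivin-deleted HCC replicate 2 and -0.039 to 0.42 when leaving out each array, and Cfb was -0.059 with normexp. In liver Fga was 0.00030 with quantile normalization and Pros1 ran from -0.057 to 0.11 when leaving out each array. Between wild-type tissues C3 was -0.053 with the value table, -0.054 with the arrays exchanged, -0.26 when survivin-deleted HCC replicate 2 was left out as well and -0.20 to 0.23 when leaving out each array, and Cfi was -0.18, -0.19 and -0.19 in the first 3 of these. Between survivin-deleted tissues C3 was -0.060 with quantile normalization, -0.17 with the arrays exchanged and without survivin-deleted HCC replicate 2, and -0.12 to 0.42 when leaving out each array. There Fga was 0.084 with the mean of all probes, and C9 was 0.030 on slide 2 without survivin-deleted HCC replicate 2 and -2.38 to 0.037 when leaving out each array. The brightest probe was chosen anew in each setting, and both C3 probes had the same mean level. Leaving out replicate 2 or 3 of survivin-deleted liver or of survivin-deleted HCC gave -0.107 for C3 between wild-type tissues. That is the estimate of the second C3 probe with all arrays, so in these settings the turn came with a change of probe. The cause of the other C3 turns was not tested. The C9 difference between tissues was 0.21 with the arrays exchanged and without survivin-deleted HCC replicate 2, 0.23 on slide 2 without it, and -2.21 to 0.21 when leaving out each array. In all, 919 of the other values of single members kept their direction.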
